A study of Mus musculus with 2 samples.

Results

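The genes described here are the metabolite carriers of the mitochondrial Slc25 family and the machinery that brings proteins into mitochondria. They were chosen by name from the deposited table: the single-symbol genes whose symbols begin with Slc25a, Timm or Tomm, together with Samm50 and the metaxins Mtx1 to Mtx3, leaving out Slc25a1. The rule found 55 genes among 10543, of which 33 are carriers and 22 are import genes, and all 55 passed the filter of an average of 1 FPKM or more. Each had a single locus. The CR library came from skeletal muscle of the thigh of mice of the strain B6C3F1, aged 26 months, that had eaten about 40% fewer calories for 25 months, on a diet enriched so that protein, vitamins and minerals per body weight stayed close to those of the controls. The control library came from the same muscles of B6C3F1 mice of that age on the control diet. B6C3F1 is a hybrid of C57BL/6 and C3H mice. Each diet is represented by 1 library of poly(A) RNA, and the labels do not say how many mice gave RNA to each. There is therefore no spread between replicates and no test across samples, and each difference below is a difference between these libraries.

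Most of the metabolites that mitochondria use cannot cross the inner membrane on their own, and many Slc25 carriers exchange them for other metabolites. The best known is the ADP/ATP carrier, which in muscle sends ATP out to the contractile apparatus and brings ADP in. Nearly all mitochondrial proteins, the carriers included, are made in the cytosol and enter through the TOM complex of the outer membrane. From there small TIM chaperones guide carriers to the TIM22 complex of the inner membrane, the SAM complex inserts barrel proteins into the outer membrane, and the TIM23 complex passes proteins with a presequence to the matrix.

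Values are FPKM, fragments per kilobase of transcript scaled to the mapped fragments of the library. For each gene the log2 ratio sets FPKM + 1 in CR over FPKM + 1 in control, and a fold is that ratio without the log. Adding 1 understates differences of low genes. FPKM sum to a far higher total in this table than is usual, so levels are compared only within it, and the depth of the libraries is unknown. A listed 0 may come from a failed estimate, as the giant sarcomere gene Ttn is listed at 0 in both libraries. Genes listed at 0 in a library get no fold. In bulk muscle, fewer cells of a type and less RNA per cell cannot be told apart.

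The starts of 4 genes are shown because the results turn on them: Slc25a10 is the only member above 0 in both libraries that differed by more than 2-fold, Timm8b has the highest ratio of the import genes, and Timm17a and Timm17b are paralogs with unequal ratios. Each runs 5′ to 3′ on the gene's strand from 250 bases before to 50 after the annotated start, from RefSeq on build GRCm38.p6, whereas the coordinates of the table are on mm9. Capitals mark matches on either strand to GCATGCG (a form of the NRF1 core), CCGGAAG (an ETS core) or TNAAGGTCA (an estrogen-related receptor element). They also mark matches on either strand to ATTGG (the CCAAT box), CACGTG (an E-box), TATAAA or TCACNCCAC (a sterol regulatory element). Other forms of the NRF1 core were not searched and are not marked.
Slc25a10, chr11:120491587-120491886, plus strand: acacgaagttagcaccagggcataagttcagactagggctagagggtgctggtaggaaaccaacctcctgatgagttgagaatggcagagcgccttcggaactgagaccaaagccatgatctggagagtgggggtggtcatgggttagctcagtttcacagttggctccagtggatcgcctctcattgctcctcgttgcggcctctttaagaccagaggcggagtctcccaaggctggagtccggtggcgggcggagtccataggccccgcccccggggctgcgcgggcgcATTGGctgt
Timm8b, chr9:50603651-50603950, plus strand: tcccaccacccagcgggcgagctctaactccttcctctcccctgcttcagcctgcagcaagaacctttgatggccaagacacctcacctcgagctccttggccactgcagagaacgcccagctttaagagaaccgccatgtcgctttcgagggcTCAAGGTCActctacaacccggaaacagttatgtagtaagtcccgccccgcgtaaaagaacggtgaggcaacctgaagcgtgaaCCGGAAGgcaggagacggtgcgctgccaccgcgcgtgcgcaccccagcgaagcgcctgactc
Timm17a, chr1:135313688-135313987, minus strand: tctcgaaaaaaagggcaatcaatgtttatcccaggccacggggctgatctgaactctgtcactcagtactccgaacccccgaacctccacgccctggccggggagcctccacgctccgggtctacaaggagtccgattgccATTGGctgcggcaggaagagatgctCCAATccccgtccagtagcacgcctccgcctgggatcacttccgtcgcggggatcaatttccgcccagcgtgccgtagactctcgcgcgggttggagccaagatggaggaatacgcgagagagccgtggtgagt
Timm17b, chrX:7899086-7899385, plus strand: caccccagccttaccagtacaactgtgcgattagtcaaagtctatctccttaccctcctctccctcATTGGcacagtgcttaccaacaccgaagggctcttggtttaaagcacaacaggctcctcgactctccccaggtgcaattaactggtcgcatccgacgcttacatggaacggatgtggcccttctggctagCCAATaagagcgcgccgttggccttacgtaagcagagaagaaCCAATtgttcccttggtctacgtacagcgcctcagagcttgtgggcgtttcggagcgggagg

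Promoter entries were found for 45 of the 55 members, 25 carriers and 20 import genes. The windows shown differ in what they hold. That of Timm8b has a match to the ETS core, whose first letter lies 12 bases before the start, and to the estrogen-related receptor element, 96 bases before it. The windows of Slc25a10, Timm17a and Timm17b hold 1, 2 and 3 CCAAT boxes and no other marked match. Over the members with an entry, the ETS core stood in 8 of 20 import windows (40%) and 6 of 25 carrier windows (24%), against 18.3% of 7522 windows of genes in the table and 9.12% of all 27025 windows. Import windows with it belong to Mtx1, Mtx2, Mtx3, Tomm22, Tomm70a, Tomm34, Timm10 and Timm8b. Carrier windows with it belong to Slc25a3, Slc25a4, Slc25a17, Slc25a20, Slc25a25 and Slc25a38. GCATGCG, the form of the NRF1 core that was searched, stood in 1 of 20 import windows (5%), that of Timm13, and 0 of 25 carrier windows. It stood in 6.99% of windows of genes in the table and 3.64% of all windows. Windows with another form of that core were not counted. The CCAAT box stood in 7 of 20 import windows (35%) and 14 of 25 carrier windows (56%), against 38.2% and 37.9%. The E-box was in 4 import windows (20%) and 2 carrier windows (8%), against 11% and 7.24%. The TATA box was in 2 import windows (10%) and 0 carrier windows, against 6.93% and 14.2%. The estrogen-related receptor element was in 1 import window (5%) and 0 carrier windows, against 0.691% and 1.26%, and the sterol regulatory element was in 0 windows of either, against 1.02% and 1.22%. No marked matches overlap in the 4 windows shown. The ETS and NRF1 cores can match both strands at overlapping bases, so windows and not matches are counted. A match is a description of letters and not a site.

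Carriers and import genes stood close to each other and to the rest of the transcriptome. The median log2 ratio was 0.07 for the 33 carriers and 0.14 for the 22 import genes, beside -0.03 for all 10533 genes averaging 1 FPKM or more, and the carrier median minus the import median was -0.07, a difference whose sign turned at a filter of 100 FPKM (0.013). Of the 55 members, 2 stood higher in the CR library by at least 2-fold (3.64%, against 8.01% of all genes) and 1 was at least 2-fold lower (1.82%, against 10.7% of all genes). All 3 are carriers, Slc25a10 and Slc25a40 on the higher side and Slc25a24 on the lower, and 0 of the 22 import genes were past 2-fold. Slc25a40 and Slc25a24 were each listed at 0 in 1 library, so of the 3 only Slc25a10 has a fold. The shares of all genes past 2-fold likewise include the 2.27% listed at 0 in the control library only and the 4.27% listed at 0 in the CR library only. At any size of difference, 60% of members and 47.9% of all genes were higher in the CR library. Past 1.5-fold, 8 members were higher (14.5%, against 16.4% of all genes) and 4 were lower (7.27%, against 18.8%). Within 1.5-fold lay 78.2% of members and 64.8% of all genes. Among genes averaging 100 FPKM or more the same shares were 83.0% of 47 members and 73.1% of 7886 genes. In that range 1 member stood higher by at least 2-fold and 0 lower, against 4.95% and 5.29% of genes. By at least 1.5-fold, 6 members stood higher and 2 lower, against 13.4% and 13.5% of genes.

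**Figure D1:**
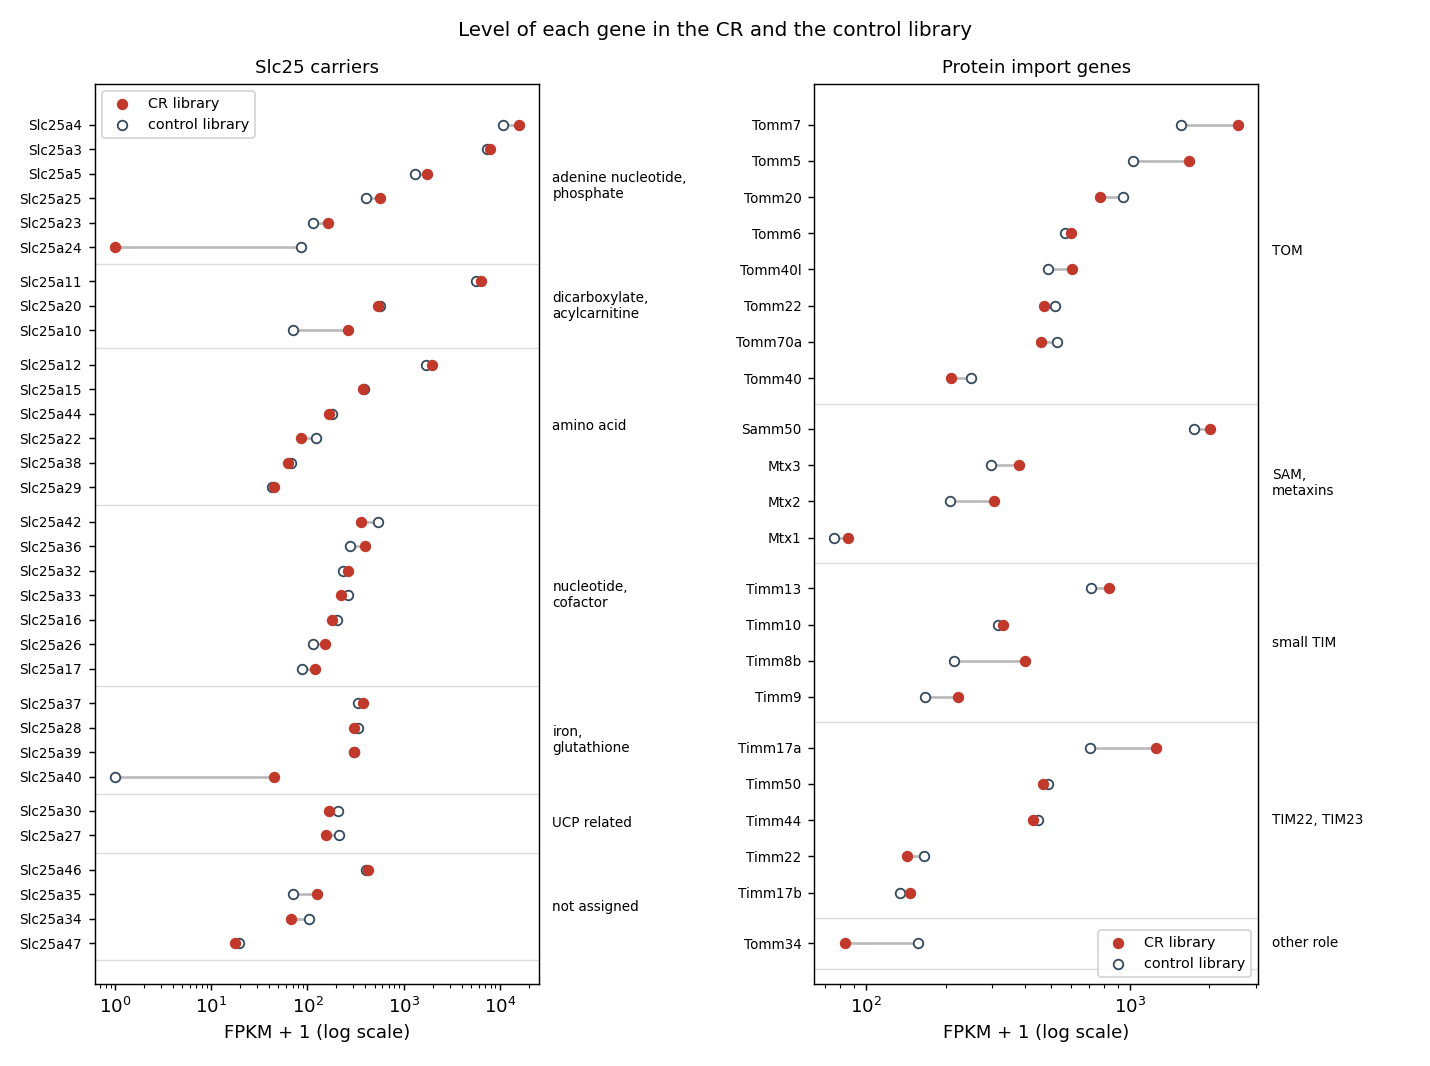
FPKM + 1 on a log axis for 32 of the 33 carriers (left) and the 22 import genes (right), grouped by role, with filled red points for the CR library, open points for the control library and a grey line joining the 2 libraries. The pairs lie close for most genes, from Slc25a4 near the top to Slc25a47 at the bottom, and the long lines belong to Slc25a24, Slc25a40 and Slc25a10.

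The summed level of both groups was higher in the CR library by a like factor. Carriers summed to 39875 FPKM in the CR library and 32676 FPKM in the control library, a ratio of 1.22, and import genes to 14423 FPKM in the CR library and 11699 FPKM in the control library, a ratio of 1.23. All genes averaging 1 FPKM or more had a ratio of sums of 1.14. The sums are led by few genes: the 5 most abundant carriers, Slc25a4, Slc25a3, Slc25a11, Slc25a12 and Slc25a5, made up 84.5% of carrier FPKM in the CR library and 82.0% in the control library. All 5 were higher in the CR library, with a ratio of sums of 1.26, whereas the other 28 carriers had 14 genes on each side of 0 on the log2 scale and a ratio of sums of 1.05. For import genes the same split gave a ratio of sums of 1.38 for the 5 most abundant and 1.07 for the other 17. The order of levels among the 55 members was close in the libraries, with a Spearman rho of 0.95 across genes, which share both libraries and are not replicates.

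The carriers of adenine nucleotides and phosphate, which feed the ATP synthase, included the most abundant members. Slc25a4, the ADP/ATP carrier of heart and muscle (mm9 chromosome 8, 47288152 to 47296641), stood at 15724 FPKM in the CR library and 10742 FPKM in the control library, a log2 ratio of 0.55 and a fold of 1.46. Slc25a5, the more widely expressed ADP/ATP carrier (chromosome X, 34335647 to 34338801), stood at 1729.5 FPKM in the CR library and 1314 FPKM in the control library, a fold of 1.32. Slc25a3, the phosphate carrier, stood at 7879.5 FPKM in the CR library and 7303 FPKM in the control library, a fold of 1.08. The muscle form was thus the main ADP/ATP carrier in both libraries, at 90.1% of the pair's FPKM in the CR library and 89.1% in the control library. Slc25a5 has an annotated pseudogene, Slc25a5-ps, so its value is uncertain. Slc25a25 and Slc25a23, calcium-regulated carriers of ATP-Mg and phosphate, had folds of 1.40 and 1.41. Slc25a24, of the same kind (chromosome 3, 108926067 to 108971327), was listed at 0 in the CR library and 83.7 FPKM in the control library, and 4.27% of all genes were likewise listed at 0 in the CR library only. The 5 members of this role above 0 in both libraries were all higher in the CR library, with log2 ratios from 0.11 to 0.55 and a median of 0.49. Of all genes, 47.9% were higher in that library.

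Of the carriers of dicarboxylates and acylcarnitine, 1 stood apart. Slc25a10, the dicarboxylate carrier, exchanges malate and succinate for phosphate and is well expressed in white fat (chromosome 11, 120353151 to 120362475). It stood at 260.5 FPKM in the CR library and 69.8 FPKM in the control library, a log2 ratio of 1.88 and a fold of 3.69. Slc25a11, which exchanges oxoglutarate for malate in the malate-aspartate shuttle, stood at 6433 FPKM in the CR library and 5714 FPKM in the control library, a fold of 1.13. Slc25a20, which brings acylcarnitines in for fatty acid oxidation, stood at 539 FPKM in the CR library and 564 FPKM in the control library, a log2 ratio of -0.07. The more abundant Slc25a11 and Slc25a20 thus lay within 1.5-fold, and Slc25a10, past 2-fold, was the least abundant of the 3.

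Most white adipocyte genes were higher in the same library as Slc25a10. Past 2-fold, 11 of 15 markers were higher (73.3%, against 8.01% of all genes) and 0 lower (against 10.7%). Their median log2 ratio was 2.13. At any size of difference, 13 were higher and 2 lower. Plin4 was lower, at 702 FPKM in the CR library and 1164 FPKM in the control library. Pnpla2 was also lower, at 2856 FPKM in the CR library and 3311 FPKM in the control library. The 15 markers summed to 41466 FPKM in the CR library and 23388 FPKM in the control library. Car3 alone held 17548 FPKM of the CR sum and 14545 FPKM of the control sum, a log2 ratio of 0.27. The sums therefore say little about the other markers. Adipoq, the adipocyte hormone adiponectin, stood at 1178 FPKM in the CR library and 153 FPKM in the control library, and Fabp4, the adipocyte fatty acid binding protein, at 12924 FPKM in the CR library and 2948 FPKM in the control library. Of the defining markers only Adrb3, the beta-3 adrenergic receptor, was listed at 0, and that in the control library. The part of adipocyte RNA in the ratio of Slc25a10 was not tested.

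Amino acid carriers lay on both sides of 0 and within 1.5-fold in all 6 cases, with a median log2 ratio of -0.06. Slc25a12, the aspartate/glutamate carrier of muscle and brain and the other arm of the malate-aspartate shuttle, was the most abundant at 1947 FPKM in the CR library and 1718 FPKM in the control library, a fold of 1.13. Slc25a15, the ornithine carrier, stood at 378 FPKM in the CR library and 385 FPKM in the control library. Slc25a44, a carrier of branched-chain amino acids, stood at 166 FPKM in the CR library and 177 FPKM in the control library. The farthest from 0 was Slc25a22, which carries glutamate, at 84.5 FPKM in the CR library and 121 FPKM in the control library, a log2 ratio of -0.52. Slc25a38, which brings in glycine for heme synthesis, and Slc25a29, a carrier of basic amino acids, had log2 ratios of -0.12 and 0.07.

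Among the 8 carriers of nucleotides and cofactors, 5 were higher and 3 lower in the CR library, with a median log2 ratio of 0.30. Slc25a42, a carrier of coenzyme A (chromosome 8, 72708239 to 72736180), stood at 356 FPKM in the CR library and 543 FPKM in the control library, 1.52-fold lower. Slc25a36 and Slc25a33, both pyrimidine nucleotide carriers, differed in sign: Slc25a36 had 393 FPKM in the CR library and 276 FPKM in the control library, whereas Slc25a33 had 219.8 FPKM in the CR library and 263 FPKM in the control library. Slc25a17, a peroxisomal member of the family, and Slc25a26, the S-adenosylmethionine carrier, had folds of 1.37 and 1.35. Slc25a26 overlaps Lrig1 on the opposite strand. The library kit keeps no record of strand as described, which leaves the value of Slc25a26 uncertain. Slc25a32, linked to folate and flavin transport, and Slc25a16 had log2 ratios of 0.16 and -0.17.

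Carriers for iron and glutathione were nearly level but for 1 gene listed at 0. The mitochondrial iron importers Slc25a37 and Slc25a28, known as mitoferrins, differed in sign. Slc25a37 stood at 379 FPKM in the CR library and 331 FPKM in the control library, and Slc25a28 at 305 FPKM in the CR library and 338 FPKM in the control library. Slc25a37, the mitoferrin of red cell precursors, thus made up 55.5% of the pair in the CR library and 49.5% in the control library. Of the blood cell markers listed in the table, Hba-a1, a globin, stood at 48110.1 FPKM in the CR library and 15925 FPKM in the control library, and Alas2, the heme enzyme of red cell precursors, at 512 FPKM in the CR library and 264 FPKM in the control library. The other 2 markers did not follow: Hbb-b2, another globin, stood at 2598 FPKM in the CR library and 2514 FPKM in the control library, and Cd68, a macrophage marker, at 66.9 FPKM in the CR library and 99.7 FPKM in the control library. The 4 blood markers used, of 8 listed, summed to 51287 FPKM in the CR library and 18802 FPKM in the control library, mostly Hba-a1. Of these 4, 1 was at least 2-fold higher (25%, against 8.01% of all genes) and none was at 0. The part of these markers in the Slc25a37 share was not tested. Slc25a39, a glutathione carrier, stood at 301 FPKM in the CR library and 300.5 FPKM in the control library. Its close relative Slc25a40 (chromosome 5, 8422850 to 8454793) was listed at 44.3 FPKM in the CR library and 0 in the control library, as were 2.27% of all genes listed at 0 in the control library only.

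The carriers related to uncoupling proteins were lower in the CR library. Slc25a27, known as UCP4, stood at 156 FPKM in the CR library and 214 FPKM in the control library, a log2 ratio of -0.45. Unnamed loci lie within its span, some on its own strand, so the value of Slc25a27 is uncertain. Slc25a30 stood at 165 FPKM in the CR library and 207 FPKM in the control library, a log2 ratio of -0.32. Of the 4 carriers with no substrate assigned here, Slc25a35 stood at 124 FPKM in the CR library and 69.5 FPKM in the control library, a fold of 1.78. It overlaps Rangrf on the opposite strand, which stood at 166 FPKM in the CR library and 96.2 FPKM in the control library, so the value of Slc25a35 is uncertain. Slc25a34 stood at 67.2 FPKM in the CR library and 102 FPKM in the control library, 1.51-fold lower. Slc25a46, an outer membrane protein linked to mitochondrial fission, stood at 424 FPKM in the CR library and 407 FPKM in the control library. Slc25a47 was the least abundant member, at 16.8 FPKM in the CR library and 18.6 FPKM in the control library.

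**Figure D2:**
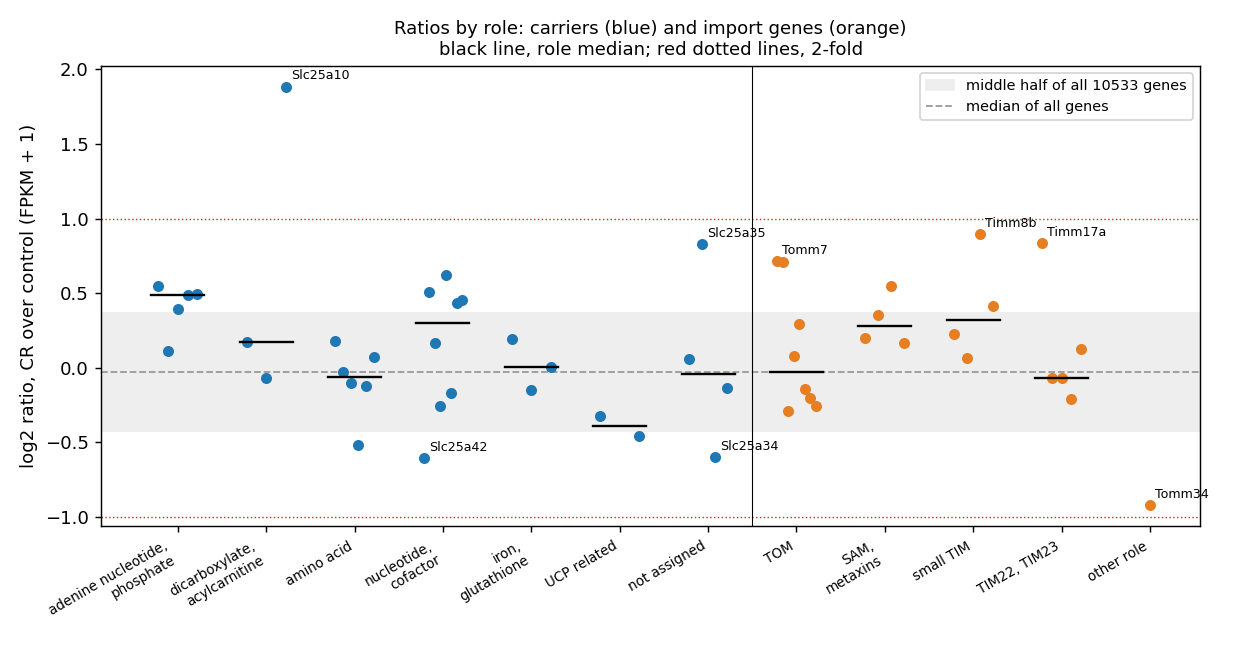
Log2 ratio of CR over control FPKM + 1 for the 53 members above 0 in both libraries, by role, with the role median as a black line, the median of all 10533 genes as a dashed line and the interquartile range of all genes as a grey band. Slc25a10 at 1.88 is the only point past the dotted 2-fold lines, and Timm8b, Timm17a, Slc25a35, Tomm7 and Tomm5 lie between 0.71 and 0.89.

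The TOM complex, the entry gate of the outer membrane, was split by subunit. Its receptors and its pore were all lower in the CR library by small ratios. Tomm20, a presequence receptor, stood at 769 FPKM in the CR library and 939 FPKM in the control library, a log2 ratio of -0.29. Tomm70a, the receptor for carrier precursors, stood at 459 FPKM in the CR library and 528 FPKM in the control library, a log2 ratio of -0.20. Tomm22, the central receptor, had a log2 ratio of -0.14, and Tomm40, the pore, stood at 208 FPKM in the CR library and 248 FPKM in the control library, a log2 ratio of -0.25. These 4 genes summed to 1905 FPKM in the CR library and 2232 FPKM in the control library, a ratio of 0.85.

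Of the small TOM subunits, which steady the pore, Tomm7 and Tomm5 were higher in the CR library and Tomm6 was nearly level. Tomm7 stood at 2569.7 FPKM in the CR library and 1565 FPKM in the control library, and Tomm5 at 1677 FPKM in the CR library and 1025 FPKM in the control library, each a fold of 1.64. Tomm6 stood at 598 FPKM in the CR library and 566 FPKM in the control library, a log2 ratio of 0.08. The 3 summed to 4845 FPKM in the CR library and 3156 FPKM in the control library, a ratio of 1.54. Splitting the complex by subunit was done with these values known, so the split is a description. Tomm40l, a paralog of the pore, stood at 599.6 FPKM in the CR library and 488 FPKM in the control library, and made up 74.3% of the pair with Tomm40 in the CR library and 66.3% in the control library. The whole complex had 4 genes higher and 4 lower, with a median log2 ratio of -0.03.

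The SAM complex and the metaxins, which insert barrel proteins such as the VDAC channels, were all 4 higher in the CR library, against 47.9% of all genes. Their median log2 ratio was 0.28. Samm50, the core of the complex, stood at 2001 FPKM in the CR library and 1743 FPKM in the control library, a fold of 1.15. Mtx2 stood at 303 FPKM in the CR library and 207 FPKM in the control library, a fold of 1.46, and Mtx3 at 379 FPKM in the CR library and 296 FPKM in the control library, a fold of 1.28. Mtx1 stood at 84.1 FPKM in the CR library and 74.9 FPKM in the control library, and its value is uncertain because reads of overlapping loci cannot be separated by strand. None reached 1.5-fold.

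The small TIM chaperones, which hold carrier precursors soluble between the membranes, were also all 4 higher, against 47.9% of all genes. Their median log2 ratio was 0.32. Genes averaging 100 FPKM or more with an annotated transcript under 1000 bases had the same median, 0.32. Timm8b (chromosome 9, 50411627 to 50413921) had the highest ratio of the import genes, at 400.0 FPKM in the CR library and 215 FPKM in the control library, a log2 ratio of 0.89 and a fold of 1.86. It overlaps Sdhd and AU019823 on the opposite strand, which are more abundant: Sdhd stood at 2608 FPKM in the CR library and 1867 FPKM in the control library, and AU019823 at 3154 FPKM in the CR library and 1588 FPKM in the control library. Strand is not marked, so the value of Timm8b is uncertain. Timm9 and Timm10 form a hexamer. Timm9 stood at 221 FPKM in the CR library and 166 FPKM in the control library, a fold of 1.33, and Timm10 at 330.3 FPKM in the CR library and 316 FPKM in the control library, a fold of 1.05. Timm13, the partner of Timm8 proteins, stood at 833 FPKM in the CR library and 711 FPKM in the control library, a fold of 1.17. With the libraries rescaled so that genes other than the 50 most abundant had equal sums, Timm10 turned to a log2 ratio of -0.01 and the other 3 small TIM genes stayed above 0.

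Of the 5 inner membrane translocase genes, 1 was past 1.5-fold. Timm17a (chromosome 1, 137197849 to 137210318), a channel subunit of TIM23, stood at 1258 FPKM in the CR library and 705 FPKM in the control library, a log2 ratio of 0.84 and a fold of 1.78. Its paralog Timm17b (chromosome X, 7476511 to 7485071), which overlaps Pqbp1 on the opposite strand and is uncertain for that reason, stood at 145 FPKM in the CR library and 133 FPKM in the control library, a fold of 1.09. Timm17a therefore made up 89.6% of the pair in the CR library and 84.1% in the control library. Timm50, the TIM23 receptor, stood at 467 FPKM in the CR library and 489 FPKM in the control library, and Timm44, which anchors the import motor, at 427 FPKM in the CR library and 448 FPKM in the control library, each a log2 ratio of -0.07. Timm22, the channel for carriers, stood at 142 FPKM in the CR library and 165 FPKM in the control library, a log2 ratio of -0.21. Timm23, the other channel subunit, was not analysed here.

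Tomm34, a cytosolic co-chaperone that shares the name but is no subunit of the TOM complex, had the lowest ratio of the import genes. It stood at 82.2 FPKM in the CR library and 157 FPKM in the control library, a log2 ratio of -0.92, 1.89-fold lower (chromosome 2, 163879277 to 163896838).

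**Figure D3:**
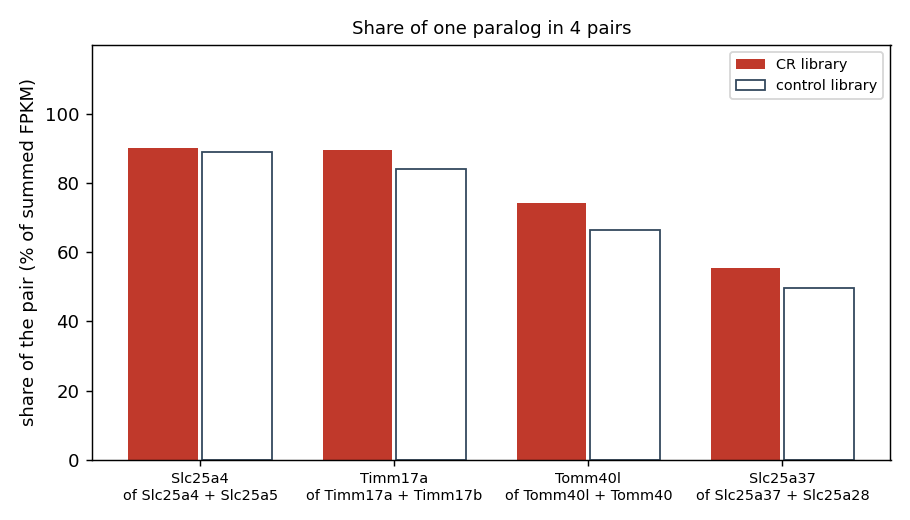
Share of the first-named gene in the summed FPKM of 4 paralog pairs, in the CR library (red bars) and the control library (open bars), 1 library each. The ADP/ATP carrier pair is nearly level, at 90.1% in CR and 89.1% in control, and the Tomm40l share is 74.3% in CR and 66.3% in control.

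Transcript length moved with the ratios. Over genes averaging 100 FPKM or more, the median log2 ratio was 0.32 for the 623 with an annotated transcript under 1000 bases and -0.12 for the 3475 of 3 kb and over. Spearman's rho between log2 ratio and length was -0.22 across 7745 such genes and -0.04 across the 55 members, as a description. The 6 members under 1000 bases are all import genes, Tomm5, Tomm6, Timm8b, Timm9, Timm10 and Timm13, and had the same median of 0.32. Among the 623 short genes, 84.6% had a lower ratio than Timm8b and 76.4% a lower ratio than Tomm5, against 33.5% for Tomm6 and 32.6% for Timm10. Timm17a, with an annotated transcript of 7280 bases, and Tomm7, with 1125 bases, are not in that class. With the median of the length class subtracted, which was tried once the values were known, the import median was 0.02 and the carrier median minus the import median was 0.08, opposite in sign to -0.07. In that setting Tomm6, Timm10 and Timm13 turned to log2 values of -0.22, -0.23 and -0.07, while Tomm5, Tomm7, Timm8b and Timm9 stayed above 0. The carriers Slc25a15, Slc25a39 and Slc25a44 also changed sign, to 0.11, -0.04 and 0.03. Of the 55 members, 23 moved by more than 0.1. The part of length in the ratios of the short members was not tested beyond this.

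**Figure D4:**
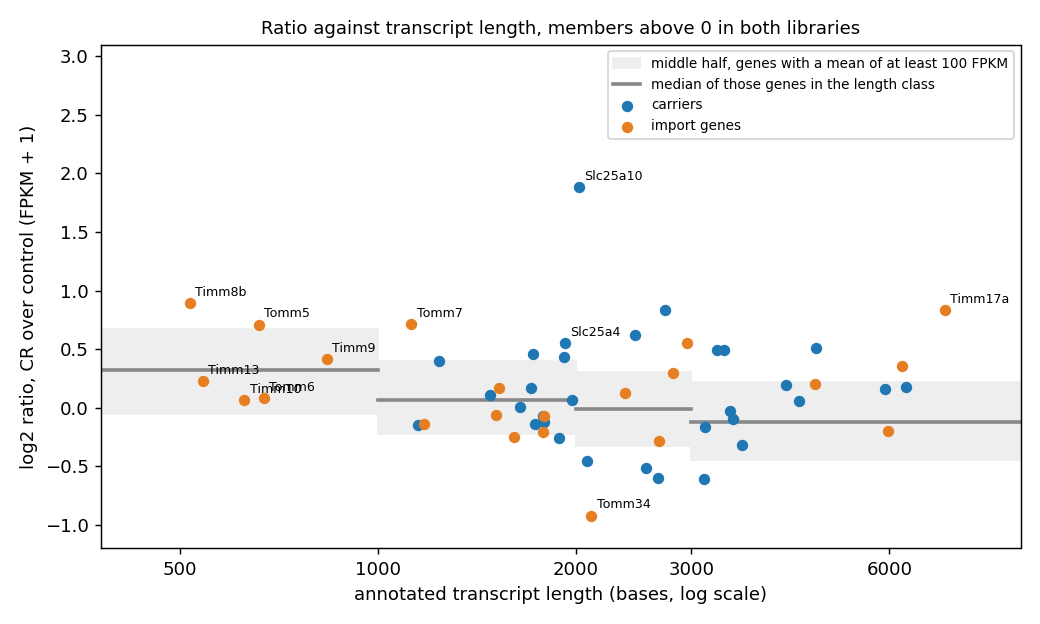
Log2 ratio of CR over control FPKM + 1 against annotated transcript length on a log axis, for the 53 members above 0 in both libraries. Grey lines and bands give the median and interquartile range of all genes averaging 100 FPKM or more in 4 length classes, with medians from 0.32 under 1 kb to -0.12 at 3 kb and over.

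Other import and processing genes, 16 used of 20 listed, stood close to the members and to all genes. Past 2-fold, 1 of 16 was higher (6.25%, against 8.01% of all genes) and 0 were lower (against 10.7%). The median log2 ratio was 0.08. The gene past 2-fold was Immp1l, a peptidase of the inner membrane, at 753 FPKM in the CR library and 246 FPKM in the control library, a fold of 3.05. Chchd4, which oxidises small TIM proteins as they enter, stood at 284 FPKM in the CR library and 187 FPKM in the control library, and Dnajc19, a J-protein of the import motor, at 718 FPKM in the CR library and 476 FPKM in the control library, each a fold of 1.51. Hspa9, the motor's heat shock protein, stood at 1746 FPKM in the CR library and 1987 FPKM in the control library. The most abundant gene was Hspd1, the matrix chaperonin, at 3145 FPKM in the CR library and 3374 FPKM in the control library. Fxc1, an older symbol of Timm10b that the name rule does not reach, stood at 388 FPKM in the CR library and 357 FPKM in the control library.

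Channels and carriers outside the rule lay within 1.5-fold in 10 of 10 cases, with a median log2 ratio of 0.10. Vdac1, the main outer membrane channel, was the most abundant at 11461 FPKM in the CR library and 10927 FPKM in the control library. Ucp3, the muscle uncoupling protein, had 915 FPKM in the CR library and 1347 FPKM in the control library, a log2 ratio of -0.56. Ucp2 did not follow, at 278 FPKM in the CR library and 259 FPKM in the control library, a log2 ratio of 0.11. The mitochondrial pyruvate carrier genes, listed as Brp44l and Brp44, had log2 ratios of 0.10 and 0.27.

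Both libraries carried the sarcomere genes of skeletal muscle, with Mylpf, the fast regulatory light chain, at 283395 FPKM in the CR library and 146936 FPKM in the control library. Slow fibre markers were at least 2-fold higher in 10 of 10 cases, against 8.01% of all genes. Their median log2 ratio was 2.90, with summed levels of 135230 FPKM in the CR library and 16274 FPKM in the control library. Fast fibre markers, 9 used of 12 listed, had a median of 0.58, with 1 of 9 at least 2-fold higher (11.1%, against 8.01% of all genes). Of the 9, 7 were higher and 2 lower. Atp2a1 was lower, at 84736 FPKM in the CR library and 96498 FPKM in the control library. Actn3 was also lower, with a log2 ratio of -0.08. Endothelial markers had a median of 0.63, with 2 of 6 at least 2-fold higher (33.3%, against 8.01% of all genes). Their summed levels were 2090.1 FPKM in the CR library and 1396 FPKM in the control library. Of the 6, 5 were higher and 1 lower. The lower was Tie1, at 107 FPKM in the CR library and 158 FPKM in the control library. Of these 3 lists only the fast marker Myh2 was listed at 0, in both libraries, and it was left out of the median. The members' ratios, with medians of 0.07 and 0.14, were far smaller, and the part of fibre type in them was not tested.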

How the data were processed

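Poly(A) RNA of thigh muscle was sequenced as 76 bp paired-end reads in 1 CR and 1 control library, grouped by the diet in the labels. TopHat 1.2.0, Cufflinks and Cuffdiff were run on mm9, per the submitters' processing notes; their options and annotation were not stated there. The authors deposited FPKM per locus, per the file headers. The lowest value in each column is exactly 1, and 1 was subtracted, an offset inferred from the values. Depth is unknown, so no counting interval is given. Of 23672 loci, 234 that merge symbols were left out (0 of them held a member), and loci of a symbol were summed. Log2 ratios used a pseudocount of 1 FPKM with no rescaling, over genes averaging at least 1 FPKM. With 1 library per group no test or p-value is given; called means at least 2-fold.

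Transcript lengths are the median over the basic protein-coding transcripts of GENCODE M21, matched by symbol for 97.6% of genes and 55 of 55 members. Promoter windows came from RefSeq. Python 3.11.15, numpy 2.4.6, pandas 2.3.3, scipy 1.17.1 and matplotlib 3.10.9 were used, and the ratio step was tested on simulated data. The members, roles and lists were chosen with earlier results of these data known. By the rule for named genes, every member may be named; values are given for those past 1.5-fold, those listed at 0 and the 3 most abundant of each role, and for most others. A member that the rule takes is not reported here by name. Alternatives were pseudocounts of 0.1 and 5, no filter and filters at 10 and 100 FPKM, 2 rescalings, the largest locus of a symbol, a 1.5-fold threshold and leaving out Tomm34; leaving out members listed at 0 and subtracting length-class medians were added after the values were seen.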

Additional observations from a re-analysis of the deposited data

How the results depend on the processing

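Each group has 1 library, so nothing here measures the spread between mice or preparations, and depth is unknown. No paired analysis was possible because each group has 1 library. Over the alternatives run, the median log2 ratio of carriers lay between -0.0020 and 0.14 and that of import genes between 0.02 and 0.17. The carrier median minus the import median ranged from -0.09 to 0.08 and so has no settled sign: with only genes averaging at least 100 FPKM it was 0.013 (carriers 0.137, import genes 0.124), and with the median of the transcript length class subtracted, the difference was 0.085 and the import median 0.024. Rescaling so that genes other than the 50 most abundant had equal sums moved the median of all genes by -0.07 on the log2 scale and turned the sign of 4 members within 0.07 of 0, Slc25a29, Slc25a39, Slc25a46 and Timm10. With only genes averaging at least 100 FPKM, or without members listed at 0, 1 carrier was at least 2-fold higher and 0 were at least 2-fold lower. At a 1.5-fold threshold 4 carriers were higher and 3 lower, and 4 import genes were higher and 1 lower. The filter at 100 FPKM left medians of 3.02 for slow fibre and 0.95 for blood cell markers, as fewer genes remained. No member past 2-fold changed sign under these alternatives. Pseudocounts of 0.1 and 5 FPKM moved 2 members by more than 0.1, the 2 listed at 0.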

Other observations

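Unnamed loci lie within the spans of some members: 36 of them overlap 11 members. Most are short pieces, and their reads cannot be assigned by strand. Samm50, Slc25a12 and Slc25a27 each hold several such loci, so the values of these members are uncertain. On the plus strand of mm9 chromosome 3, opposite Mtx1, an 80 bp locus at 89017738 to 89017817 was listed at 1553 FPKM in the CR library and 0 in the control library, whereas Mtx1 itself stood at 84.1 FPKM in the CR library and 74.9 FPKM in the control library. On the minus strand of chromosome 11, opposite Timm22, a locus of 1560 bp at 76223145 to 76224704 was listed at 0 in the CR library and 211 FPKM in the control library, whereas Timm22 stood at 142 FPKM in the CR library and 165 FPKM in the control library. These loci were chosen after their values were seen.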
